A study of Homo sapiens with 4 samples.

Results

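The comparison described here set Ishikawa cells given 17β-estradiol (E2) for 2 h against Ishikawa cells given only the vehicle, and it held 2256 single cells of the 9239 kept in the whole series. Ishikawa is an established line of human endometrial adenocarcinoma. Both cultures came from cells moved to hormone-depleted medium for several days, so the 0 h culture had been deprived of estrogen and then received DMSO, and the 2 h culture received 10 nM E2. Each time point was 1 culture, which was marked with its own membrane-anchored DNA tag (MULTI-seq) and then mixed with the later cultures (4 h and 8 h) into 1 droplet library. The series also holds the same time course in T-47D, a line of human breast carcinoma. A cell was taken when the deposited tag calls gave it 0 h or 2 h and when it had 8500 to 35000 unique molecular identifiers (UMIs, each of which marks 1 captured transcript), 2700 to 6000 genes and under 7% of UMIs from mitochondrial genes. This left 776 of the 2032 cells called as 0 h (38.2%, 95% exact binomial interval 36.1 to 40.3) and 1480 of the 2651 called as 2 h (55.8%, 53.9 to 57.7).

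E2 is the main circulating estrogen. It enters cells and binds estrogen receptor α, the product of ESR1, which then acts at enhancers and promoters as a transcription factor that raises some genes and lowers others. In the endometrium this response drives the growth phase of the epithelium, and endometrial and breast tumours can depend on it. The early phase of the response is made of genes that change before new regulatory proteins have built up.

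The oligonucleotides that set the groups are shown first, since every comparison rests on them. The tag of the vehicle culture and the tag of the 2 h culture, written 5′ to 3′, were
0 h tag: TTCTGCCT
2 h tag: GCAGCGTA
In T-47D the same tags marked other times, 8 h for the first and 4 h for the second. All 2032 Ishikawa cells called with the first tag had the time 0 h and all 2651 called with the second had 2 h. The matrix held 14985 barcodes, of which 1906 carried more than 1 tag and 4002 had no call, and these were left out. Of the barcodes in the matrix, 80 also occurred in the T-47D matrix, and 5 were kept in both.

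The 250 bases before the start sites of 4 genes are shown because these genes stood among the 10 highest or the 10 lowest changes and because their promoters hold the motifs counted below. The sequences are from RefSeq (GRCh38.p14), 5′ to 3′ on the gene's own strand, and capitals mark the letters that matched a motif.
G0S2 (chr1:209675162-209675411, plus strand, higher at 2 h): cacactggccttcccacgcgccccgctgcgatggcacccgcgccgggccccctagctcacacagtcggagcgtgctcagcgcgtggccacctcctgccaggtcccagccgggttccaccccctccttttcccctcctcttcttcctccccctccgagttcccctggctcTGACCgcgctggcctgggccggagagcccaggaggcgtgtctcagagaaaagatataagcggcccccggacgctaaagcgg
RNF223 (chr1:1074307-1074556, minus strand, higher at 2 h): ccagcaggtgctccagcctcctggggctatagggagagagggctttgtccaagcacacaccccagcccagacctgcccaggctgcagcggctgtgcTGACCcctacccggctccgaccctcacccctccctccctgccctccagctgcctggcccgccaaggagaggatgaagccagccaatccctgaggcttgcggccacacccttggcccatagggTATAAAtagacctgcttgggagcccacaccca
DHRS2 (chr14:23629865-23630114, plus strand, lower at 2 h): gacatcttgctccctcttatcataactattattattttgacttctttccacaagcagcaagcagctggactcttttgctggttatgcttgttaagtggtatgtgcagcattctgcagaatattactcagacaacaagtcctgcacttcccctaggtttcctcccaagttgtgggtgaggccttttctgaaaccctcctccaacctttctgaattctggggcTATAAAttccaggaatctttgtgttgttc
HSPA6 (chr1:161524290-161524539, plus strand, lower at 2 h): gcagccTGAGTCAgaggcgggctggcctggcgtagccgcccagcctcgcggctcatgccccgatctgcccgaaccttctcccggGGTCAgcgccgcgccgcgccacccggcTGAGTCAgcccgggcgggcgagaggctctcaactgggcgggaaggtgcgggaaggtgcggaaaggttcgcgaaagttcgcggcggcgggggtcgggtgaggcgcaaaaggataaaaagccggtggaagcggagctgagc
The G0S2 promoter held an estrogen receptor half-site (GGTCA, here as TGACC on the printed strand) from position -81, where 0 is the start base. In RNF223 a half-site lay at -154 and the TATA sequence TATAAA at -32. DHRS2 had TATAAA at -29, and HSPA6 had a half-site at -166 and the AP-1 sequence TGANTCA at -244 and -139.

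The UMIs of the kept cells were summed per time point, without the GFP and tdTomato features, and gave 14589194 UMIs at 0 h and 28917798 at 2 h. Levels below are UMIs scaled to the same total of 1000000 per pool (CPM). Brackets after a level hold its 95% Poisson interval, brackets after a fold hold the exact 95% interval of the ratio of the 2 pools, and both cover counting error only. With 1 culture per time point there was no replicate, so no test was possible and no p-value is given. A difference between the pools cannot be told apart from a difference between 2 cultures of the same kind. The kept cells of the 2 cultures had like depth, with medians of 19122 UMIs and 4344.5 genes at 0 h and 19616 UMIs and 4407 genes at 2 h, and like median mitochondrial shares of 4.12% and 4.27%. They differed in the reporter GFP, a feature that the labels do not describe, which took 4.67% of all UMIs at 0 h and 3.17% at 2 h. Among all called cells the medians were further apart, at 10484 UMIs per cell at 0 h and 16193 at 2 h, with 7.29% and 4.95% of them mitochondrial. Cells with a UMI of the proliferation markers TOP2A or MKI67 made up 66.1% (62.7 to 69.4) of the kept cells at 0 h and 67.8% (65.3 to 70.1) at 2 h.

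The cells had most of the genes taken here as markers of an endometrial epithelium. Of 15 such markers, 13 were past 10 CPM, among them the keratins KRT8 and KRT18, PAX8 and HOXA10. The summed level of the 15 was 5901 CPM at 0 h and 6073 CPM at 2 h. MUC1 (2.47 and 2.21 CPM) and HOXA11 (4.455 and 6.50 CPM) were under the minimum. Of the 13, 9 were also past 10 CPM in the breast line T-47D, so the list is not particular to endometrium. ESR1 was at 46.7 CPM (43.2 to 50.3) at 0 h and 45.4 CPM (42.98 to 47.9) at 2 h, so the receptor's own transcript was level between the pools, and it was found in 37.00% of the thinned cells at 0 h and in 36.9% at 2 h. Markers of immune cells summed to 1.65 and 1.94 CPM, with 7 of the 10 at 0 in both pools, and markers of endothelium to 1.65 and 1.42 CPM. Markers of stroma summed to 146 and 154 CPM, nearly all from ACTA2 (112 and 126 CPM) and COL1A1 (30.4 and 24.1 CPM). Markers of ciliated cells summed to 8.84 and 14.01 CPM. Breast luminal markers summed to 24.3 and 19.3 CPM, of which TRPS1 held 22.2 and 16.5 CPM.

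Few genes differed between 0 h and 2 h, and the higher genes were led by G0S2, RNF223 and RGS10 and the lower ones by LINC01647, HSPA6 and IER3. LINC01647 rested on few cells, and HSPA6 did not pass 1.5-fold in cells with under 1% GFP, as set out below. Of 8066 genes whose level averaged at least 10 CPM in the pools, 57 were higher at 2 h by at least 1.5-fold on the log2(CPM + 1) scale (0.707% of those tested) and 69 were lower (0.855%). Of all 8066, 92.8% lay within 0.32 of 0 on the log2 scale. Only 17 genes were higher and 8 lower by 2-fold or more. For each of the 57 and 69 genes, the interval of the ratio excluded 1. The genes were picked by the same counts and fold, so this is no further support for them. With another scaling of the pools, by trimmed mean of M-values (TMM), the split was 68 higher (61.3% of the calls, against 45.2%) and 43 lower, and the median log2 change of all genes was 0.02 in place of -0.04. The members at the edge of the rule were MEOX1 (0.59) just inside and NRIP1 (0.58) just outside for higher genes, and PLEKHH3 (-0.59) just inside and KLF6 (-0.58) just outside for lower ones.

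**Figure D1:**
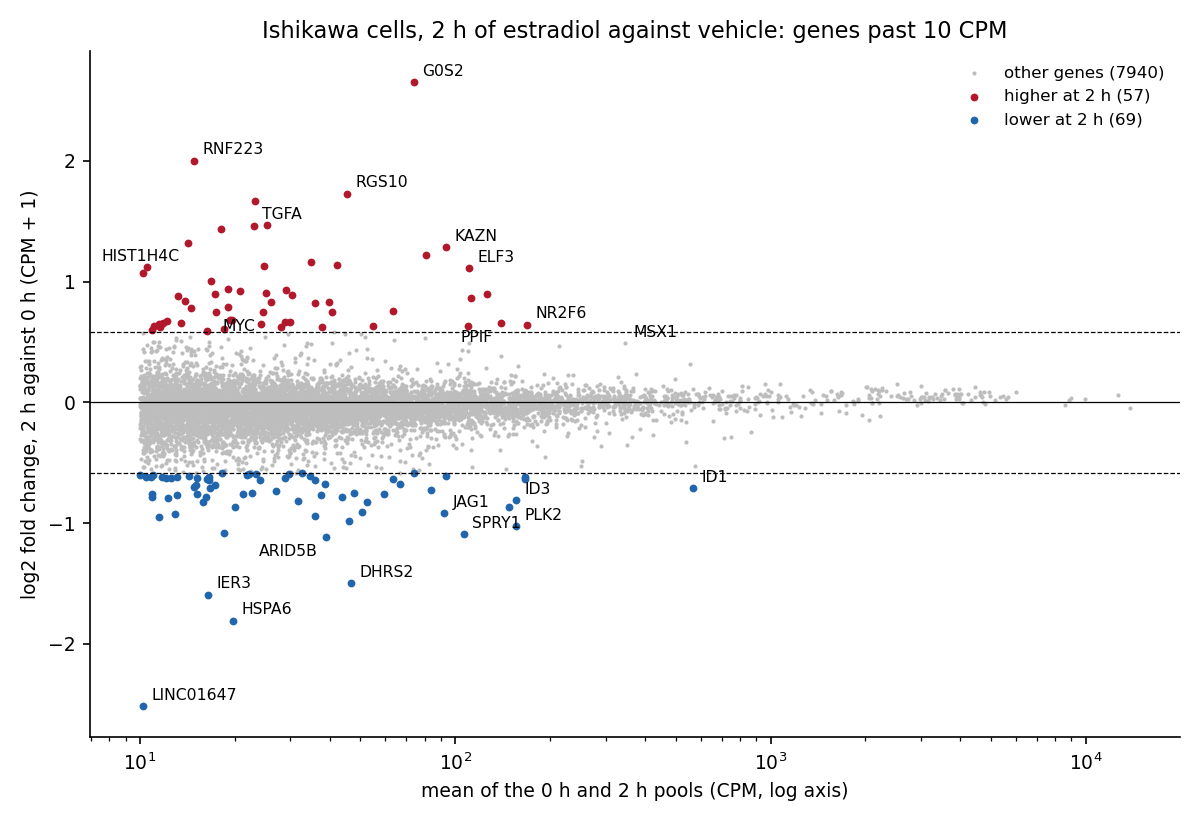
Each point is 1 of the 8066 genes past the minimum, with the mean level of the 2 pools on the x axis (CPM, log axis) and the log2 fold change at 2 h against 0 h on the y axis. Dashed lines mark 1.5-fold, red points are the 57 higher and blue points the 69 lower genes, and G0S2 at 2.65 and LINC01647 at -2.52 are the extremes.

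G0S2 showed the largest increase. It codes for an inhibitor of the lipase PNPLA2, which breaks down stored triglyceride, and it was at 19.5 CPM (17.3 to 21.9) at 0 h and 128 CPM (124 to 132) at 2 h, 6.55-fold higher (5.81 to 7.42). PNPLA2 itself was at 34.1 CPM at 0 h and 28.5 CPM at 2 h. Of the 7 genes of lipid storage past the minimum G0S2 alone passed 1.5-fold (14.3%, against 0.707% of all tested genes). That list was drawn up with earlier results of these data known, so the count is not independent evidence. The gain in G0S2 was both in more cells and in more UMIs per cell. When each cell was thinned at random to 11338 UMIs, which left out 95 shallower cells at 0 h and 131 at 2 h, a G0S2 UMI was found in 13.7% (11.2 to 16.5) of 681 cells at 0 h and in 29.8% (27.4 to 32.3) of 1349 cells at 2 h. Without thinning these shares were 17.3% and 35.3%. In thinned cells the highest G0S2 count was 8 at 0 h and 52 at 2 h, and cells with 10 or more G0S2 UMIs made up 0 of 681 at 0 h, which allows a share of up to 0.441%, and 4.37% at 2 h. At 2 h, 70.2% of the thinned cells still had no G0S2 UMI. Each library held 1 cell line, so no cells of another type gave a level for free RNA, and its part in these shares was not tested.

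TGFA, which codes for a ligand of the EGF receptor, was at 11.8 CPM (10.1 to 13.7) at 0 h and 34.2 CPM (32.1 to 36.4) at 2 h, 2.90-fold higher (2.47 to 3.43). Of the 6 genes of the EGF family past the minimum it alone passed 1.5-fold (16.7%, against 0.707% of all tested genes). The receptors EGFR (28.1 and 24.5 CPM), ERBB2 (18.7 and 20.4 CPM) and ERBB3 (20.2 and 18.7 CPM) and the ligand AREG (14.5 and 13.2 CPM) stayed within 0.32 of 0 in log2 change. NRTN, the neurotrophic ligand neurturin, was at 12.9 CPM (11.2 to 14.9) at 0 h and 37.7 CPM (35.5 to 39.96) at 2 h, 2.91-fold higher (2.49 to 3.41). The adrenergic receptor gene ADRA2C went from 10.8 to 22.7 CPM, the TNF receptor family gene TNFRSF18 from 9.66 to 18.1 CPM, the decoy interleukin receptor gene IL1R2 from 29.5 to 45.99 CPM and the Wnt receptor gene FZD5 from 9.19 to 15.2 CPM. These 4 folds ran from 1.56-fold higher for IL1R2 to 2.10-fold higher for ADRA2C.

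RGS10, a regulator that shortens G protein signalling, was at 20.6 CPM (18.3 to 23.03) at 0 h and 70.4 CPM (67.4 to 73.6) at 2 h, 3.43-fold higher (3.03 to 3.88), and its UMIs were found in 19.97% of the thinned cells at 0 h and in 41.4% at 2 h. Only 3 of the 14 RGS genes looked at were past the minimum, with a median log2 change of -0.34, and the lowest of these, RGS20, was at 14.2 CPM at 0 h and 10.5 CPM at 2 h. RHOU, an atypical small GTPase, was at 9.32 CPM (7.82 to 11.03) at 0 h and 26.9 CPM (25.01 to 28.8) at 2 h, 2.88-fold higher (2.40 to 3.48), and RHOB, another small GTPase, at 10.4 CPM at 0 h and 18.6 CPM at 2 h, 1.78-fold higher. The inositol phosphatase gene SYNJ2 went from 15.2 to 34.3 CPM, the muscle kinase adaptor gene DOK7 from 12.8 to 25.4 CPM and the phospholipase gene PLCB1 from 18.6 to 29.7 CPM. RNF223, a gene for a RING finger protein, had the second highest change at 5.35 CPM (4.23 to 6.67) at 0 h and 24.4 CPM (22.6 to 26.2) at 2 h, 4.56-fold higher (3.60 to 5.84), from 78 UMIs at 0 h and 705 at 2 h. FAM43A was at 10.6 CPM (9.02 to 12.4) at 0 h and 35.9 CPM (33.7 to 38.1) at 2 h, 3.38-fold higher (2.85 to 4.02).

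Some of the higher genes have known roles in epithelia, although none of the 13 endometrial markers past the minimum passed 1.5-fold and their median log2 change was 0.01. KAZN, which codes for the junction protein kazrin, was at 53.9 CPM (50.2 to 57.8) at 0 h and 133 CPM (129 to 137) at 2 h, 2.47-fold higher (2.28 to 2.67), and a KAZN UMI was found in 40.1% of the thinned cells at 0 h and in 74.6% at 2 h. ELF3, an ETS factor of epithelia, was at 69.4 CPM (65.2 to 73.8) at 0 h and 151 CPM (147 to 156) at 2 h, 2.18-fold higher (2.04 to 2.34). The tight junction gene TJP3 was at 6.24 CPM at 0 h and 14.8 CPM at 2 h, 2.37-fold higher, and the scaffold gene SLC9A3R1 at 79.5 CPM at 0 h and 146 CPM at 2 h, 1.83-fold higher. MSX1, a homeobox gene of the endometrium and one of the markers above, was the highest of its list at 288 CPM at 0 h and 405 CPM at 2 h and did not pass 1.5-fold.

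The carnitine transporter gene SLC22A5 was at 14.1 CPM (12.3 to 16.2) at 0 h and 27.6 CPM (25.7 to 29.5) at 2 h, 1.95-fold higher, and the lactate transporter gene SLC16A3 at 17.1 CPM (15.1 to 19.4) at 0 h and 32.96 CPM (30.9 to 35.1) at 2 h, 1.92-fold higher. MFSD2A, a transporter of lysophospholipids, was at 42.9 CPM at 0 h and 66.9 CPM at 2 h, the zinc exporter gene SLC30A1 at 14.6 CPM at 0 h and 23.96 CPM at 2 h and AGPAT2, an acyltransferase of lipid synthesis, at 47.02 CPM at 0 h and 79.99 CPM at 2 h. All of these were between 1.56-fold higher and 1.95-fold higher. PPIF, the mitochondrial cyclophilin, was at 108 CPM (103 to 113) at 0 h and 171 CPM (166 to 176) at 2 h, 1.58-fold higher.

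Regulators of transcription among the higher genes included nuclear receptors, whereas several coregulators that bind the estrogen receptor did not pass 1.5-fold. NCOR1 was at 88.6 and 92.8 CPM, EP300 at 35.2 and 33.8 CPM and the coactivator gene NCOA3 at 19.7 and 15.4 CPM. NRIP1, a corepressor of the estrogen receptor, was just outside the rule at 32.8 and 49.6 CPM. The nuclear receptor genes NR2F6 (132 and 206 CPM), PPARD (8.71 and 14.2 CPM) and RARA (8.91 and 14.3 CPM), the last for the retinoic acid receptor α, were each past 1.5-fold. HES2, a helix-loop-helix repressor, was at 21.1 CPM (18.8 to 23.6) at 0 h and 48.5 CPM (46.04 to 51.2) at 2 h, 2.30-fold higher. TOB1, an antiproliferative factor that recruits a deadenylase, was at 25.98 CPM (23.4 to 28.7) at 0 h and 58.4 CPM (55.7 to 61.3) at 2 h, 2.25-fold higher. MYC, the growth-promoting factor, was at 18.2 CPM (16.04 to 20.5) at 0 h and 31.1 CPM (29.1 to 33.2) at 2 h, 1.71-fold higher (1.49 to 1.97), and was found in 15.7% of the thinned cells at 0 h and in 29.3% at 2 h. TIPARP, a mono-ADP-ribosyltransferase, was at 21.8 CPM at 0 h and 34.1 CPM at 2 h. PEG10, an imprinted gene of retrotransposon origin, was level at 599.8 CPM at 0 h and 637 CPM at 2 h.

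**Figure D2:**
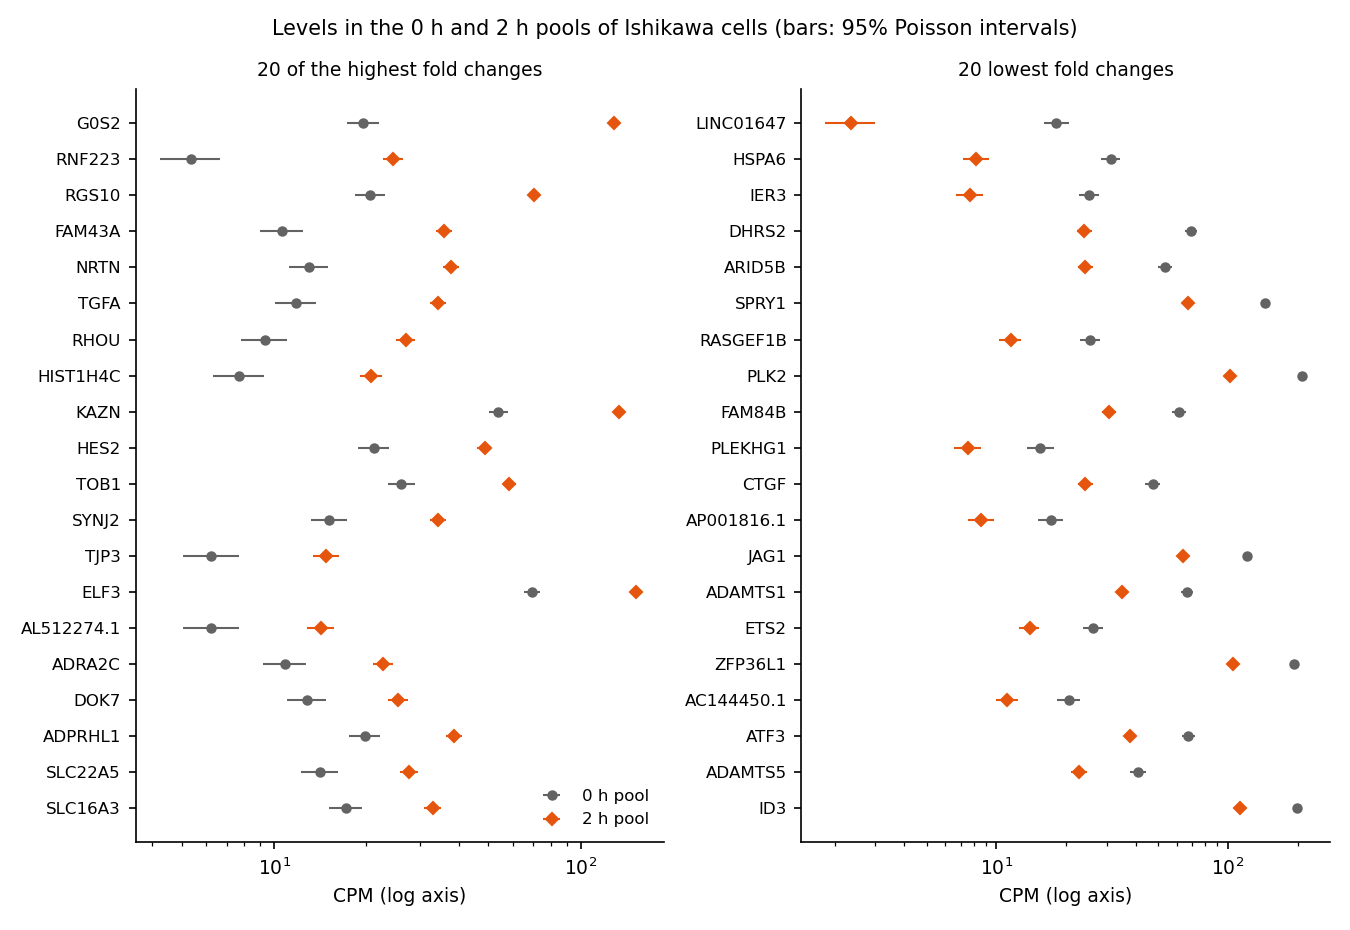
Points give the level in the 0 h pool (grey) and the 2 h pool (orange) in CPM on a log axis for 20 of the highest and the 20 lowest log2 fold changes, with 95% Poisson intervals as bars. None of the 40 pairs of intervals overlaps, but the genes were picked by the same counts, so this is no further support. G0S2 and LINC01647 show the widest gaps, and most UMIs of LINC01647 lay in few cells.

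Known estrogen targets were mostly above 0 in log2 change. Of 40 such genes, 24 were past the minimum, 17 of these were above 0, 8 were higher by 1.5-fold (33.3%, against 0.707% of all tested genes) and 0 were lower. Among the 8 were G0S2, TGFA, SLC9A3R1, MYC, SIAH2, PPIF and RARA, and the median log2 change of the 24 was 0.27, against -0.04 for all tested genes. The list was drawn up with earlier results of these cells known, so its count is not independent evidence of its direction. SIAH2, a ubiquitin ligase, was at 14.8 CPM (12.9 to 16.9) at 0 h and 24.4 CPM (22.6 to 26.3) at 2 h, 1.65-fold higher. The amino acid transporter gene SLC7A5 (93.6 and 126 CPM) and the cyclin gene CCND1 (495 and 616 CPM) were above their 0 h level without passing the fold. IGFBP5, which codes for an IGF-binding protein, was the lowest of the list at 788 CPM (773 to 802) at 0 h and 640.0 CPM (631 to 649) at 2 h.

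Some classical estrogen targets were scarce here. PGR, the progesterone receptor gene, had 14 UMIs at 0 h and 68 in the deeper 2 h pool, or 0.960 and 2.35 CPM. A PGR UMI was found in 0.881% of the thinned cells at 0 h and in 2.37% at 2 h. GREB1, a coactivator gene, had 18 UMIs at 0 h and 74 at 2 h, or 1.23 and 2.56 CPM. It was found in 1.32% of the thinned cells at 0 h and in 2.96% at 2 h. TFF1, a trefoil peptide gene, had 2 UMIs at 0 h and 3 at 2 h, or 0.137 and 0.104 CPM. Its counts were at most the floor of 3 counts. All 3 were under the minimum of 10 CPM and no fold is drawn from them. Among other genes under the minimum was DHRS3, a retinaldehyde reductase gene on the retinoid list. It had 25 UMIs at 0 h and 234 at 2 h, or 1.71 and 8.09 CPM. A DHRS3 UMI was found in 1.32% and 8.15% of the thinned cells. CA12, a carbonic anhydrase gene on the estrogen target list, had 38 and 270 UMIs, or 2.605 and 9.34 CPM. It was found in 2.50% and 8.08%. The estrogen targets TFF3 and CXCL12 had 0 UMIs in both pools, which allows up to 0.206 CPM at 0 h and 0.104 CPM at 2 h.

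Immediate early genes, which respond within minutes to growth signals and stress, mostly stood below 0 in log2 change at 2 h of E2. Of 30 such genes, 16 were past the minimum, 13 of these were below 0, 7 were lower by 1.5-fold (43.8%, against 0.855% of all tested genes) and 1, MYC, was higher. The median log2 change of the 16 was -0.52. This list and the other gene lists were also drawn up with earlier results of these data known. Their counts are thus not independent evidence of a direction. IER3, a survival gene of this class, was at 25.2 CPM (22.6 to 27.9) at 0 h and 7.68 CPM (6.70 to 8.76) at 2 h, 3.28-fold lower (2.77 to 3.89). In cells with no UMI of TOP2A or MKI67 its log2 change was -0.70 in place of -1.59. ARID5B, a chromatin factor, was at 53.5 CPM (49.8 to 57.4) at 0 h and 24.2 CPM (22.4 to 26.03) at 2 h, 2.21-fold lower (2.00 to 2.46), and a UMI of it was found in 40.8% of the thinned cells at 0 h and in 18.98% at 2 h. ZFP36L1, which codes for a protein that binds AU-rich mRNAs for decay, was at 192 CPM (185 to 199) at 0 h and 105 CPM (101 to 109) at 2 h, 1.83-fold lower (1.74 to 1.93). Among the AP-1 factors, which bind DNA as dimers, ATF3 was at 67.5 CPM at 0 h and 37.7 CPM at 2 h, JUNB at 47.5 CPM at 0 h and 27.4 CPM at 2 h and JUN at 113 CPM at 0 h and 74.00 CPM at 2 h. These folds ran from 1.53-fold lower for JUN to 1.79-fold lower for ATF3. JUN did not pass in 5 of the 13 alternatives, where its log2 change came up to -0.55. The related gene JUND was at 214 and 235 CPM and EGR1 at 14.5 and 11.8 CPM, neither of them past 1.5-fold. IER2 was at 104 CPM (99.3 to 109.8) at 0 h and 62.7 CPM (59.8 to 65.6) at 2 h, 1.67-fold lower. FOS was under the minimum, with 61 UMIs at 0 h and 70 in the deeper 2 h pool, or 4.18 and 2.42 CPM.

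**Figure D3:**
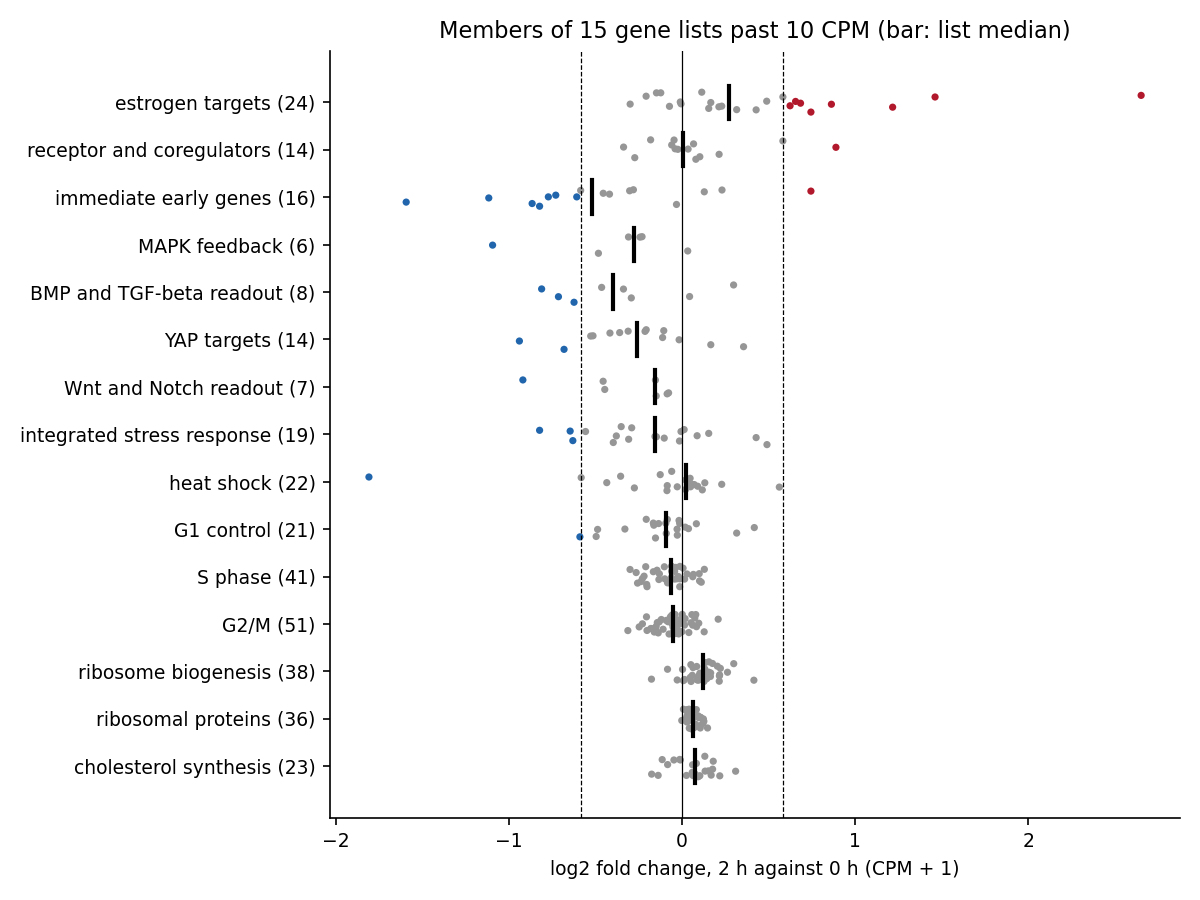
Each point is a gene past 10 CPM, placed by its log2 fold change at 2 h against 0 h within 15 gene lists, with the number of genes in brackets and the list median as a black bar. Dashed lines mark 1.5-fold, the immediate early genes have a median of -0.52 and the estrogen targets one of 0.27.

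SPRY1, a Sprouty protein that restrains the RAS and MAPK pathway, was at 145 CPM (139 to 152) at 0 h and 67.5 CPM (64.6 to 70.6) at 2 h, 2.15-fold lower (2.02 to 2.29), and was found in 59.03% of the thinned cells at 0 h and in 43.1% at 2 h. It was the one gene of 6 on the MAPK feedback list to pass 1.5-fold (16.7%, against 0.855% of all tested genes). DUSP14 was level at 26.7 and 27.3 CPM, and DUSP6, a phosphatase for ERK, was at 16.4 and 11.4 CPM. DUSP5, another such phosphatase, was under the minimum, with 173 UMIs at 0 h and 168 at 2 h, or 11.9 and 5.81 CPM. PLK2, a polo-like kinase, was at 209 CPM (202 to 217) at 0 h and 102 CPM (98.6 to 106) at 2 h, 2.04-fold lower (1.94 to 2.15). RASGEF1B, an exchange factor for small GTPases, was at 25.4 CPM (22.9 to 28.1) at 0 h and 11.5 CPM (10.3 to 12.8) at 2 h, 2.21-fold lower (1.90 to 2.57).

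The ID genes code for helix-loop-helix proteins without a DNA-binding region and are direct targets of BMP signals. ID1 was the most abundant gene past the fold, at 706 CPM (693 to 720.2) at 0 h and 431 CPM (423 to 438) at 2 h, 1.64-fold lower (1.60 to 1.68). ID3 was at 199 CPM (192 to 206) at 0 h and 113 CPM (109 to 117) at 2 h, 1.76-fold lower (1.67 to 1.85), and ID2 at 18.6 CPM (16.5 to 21.00) at 0 h and 11.8 CPM (10.5 to 13.1) at 2 h, 1.59-fold lower (1.35 to 1.86). ID4 was at 90.8 and 65.6 CPM and did not pass. These 3 were the ones past 1.5-fold of 8 genes on the BMP and TGF-β list (37.5%, against 0.855% of all tested genes), whose median was -0.40. ID2 did not pass in 5 of the 13 alternatives, where its log2 change came up to -0.45. The lower level of ID1 was seen over many cells. A UMI was found in 94.3% of the thinned cells at 0 h and in 86.7% at 2 h and cells with 10 or more ID1 UMIs went from 31.0% to 14.5% of the thinned cells.

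The Notch ligand gene JAG1 was at 121 CPM (116 to 127) at 0 h and 63.7 CPM (60.8 to 66.6) at 2 h, 1.90-fold lower (1.78 to 2.03). It was the one of 7 tested genes of Wnt and Notch past 1.5-fold (14.3%, against 0.855% of all tested genes). All 7 were below 0 with a median of -0.15, while 5010 of all 8066 tested genes were below 0, and the Notch target HES1 was at 223 and 162 CPM. Of 14 YAP targets, 2 were lower by 1.5-fold (14.3%, against 0.855% of all tested genes). CTGF, which codes for a matrix-associated growth factor, was at 47.4 CPM (43.9 to 51.03) at 0 h and 24.2 CPM (22.5 to 26.1) at 2 h, 1.95-fold lower (1.76 to 2.17). GADD45B was at 82.7 CPM (78.1 to 87.5) at 0 h and 51.2 CPM (48.7 to 53.9) at 2 h, 1.61-fold lower (1.495 to 1.74). The other well-known targets CYR61 (496 and 459 CPM) and ANKRD1 (591 and 584 CPM) stayed within 0.32 of 0 in log2 change, and the list median was -0.26. Further lower genes were the extracellular proteases ADAMTS1 (66.6 and 34.9 CPM) and ADAMTS5 (40.8 and 22.7 CPM), the ephrin gene EFNB2 (26.9 and 15.5 CPM), the ETS factor genes ETS2 (26.2 and 13.9 CPM) and ETS1 (20.4 and 12.7 CPM), the transcription factor gene KLF5 (47.6 and 29.4 CPM) and the coregulator gene CITED2 (20.8 and 11.7 CPM). SAT1, an enzyme that acetylates polyamines, was at 202 CPM at 0 h and 130.0 CPM at 2 h. CDKN2B, which codes for the inhibitor p15 of CDK4 and CDK6, was at 22.1 CPM (19.8 to 24.7) at 0 h and 14.4 CPM (13.04 to 15.8) at 2 h, 1.54-fold lower (1.33 to 1.78), and did not pass 1.5-fold in 5 of the 13 alternatives.

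Stress genes were lower in part. In the integrated stress response, 3 of 19 genes were lower by 1.5-fold (15.8%, against 0.855% of all tested genes), which were ATF3, the phosphatase subunit gene PPP1R15A (43.9 CPM at 0 h and 27.7 CPM at 2 h) and the pseudokinase gene TRIB3 (35.2 CPM at 0 h and 22.4 CPM at 2 h). ATF4, the central factor of this response, was at 199 and 197 CPM, and DDIT3 was at 79.4 and 60.8 CPM. In the heat shock list, HSPA6 alone of 22 genes passed (4.545%, against 0.855% of all tested genes), and the list median was 0.02. HSPA6, a strictly stress-inducible HSP70, was at 31.2 CPM (28.4 to 34.2) at 0 h and 8.20 CPM (7.18 to 9.31) at 2 h, 3.81-fold lower (3.25 to 4.47), while HSPA8 (904 and 949.8 CPM) and HSP90AB1 (3021 and 3123 CPM) were level, DNAJB1 was at 111 and 86.5 CPM and the chaperone regulator gene BAG3 was the highest of the list at 35.8 and 53.3 CPM. GFP moved with these genes between the pools. In the 446 cells at 0 h and 942 cells at 2 h with under 1% GFP, the log2 change of HSPA6 was -0.51 in place of -1.81, that of CTGF -0.31 in place of -0.94, that of TRIB3 -0.24 in place of -0.63, that of PPP1R15A -0.28 in place of -0.65, that of GADD45B -0.39 in place of -0.68 and that of IER2 -0.49 in place of -0.73. In the same cells SPRY1 was at -1.18, ARID5B at -1.33, JUN at -0.73 and ID1 at -0.71, against -1.09, -1.11, -0.61 and -0.71 in all kept cells. The part of GFP in these differences was not tested.

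Genes of DNA synthesis, division and ribosomes stayed within 1.5-fold. All 41 tested genes of S phase and all 51 of G2 and mitosis were within 1.5-fold, with medians of -0.06 and -0.05. Of 38 genes of ribosome biogenesis, 35 were above 0 with a median of 0.12, and the highest was URB2 at 12.3 and 16.7 CPM. Of 36 ribosomal protein genes, 35 were above 0 with a median of 0.06. Of all 8066 tested genes, 3056 were above 0. Their medians kept their sign in the 13 alternatives run, and so did those of the estrogen targets and the immediate early genes, whereas the median of the genes of G2 and mitosis was above 0 in 2 of the 13.

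Genes with clone or antisense names were frequent among the lower genes. Such names, which mostly belong to noncoding RNAs, made up 169 of the 8066 genes tested (2.10%), 1 of the 57 higher genes and 20 of the 69 lower genes (29.0%). Of the 169, 11.8% were lower by 1.5-fold, against 0.855% of all genes tested, and their median log2 change was -0.24, against -0.04 for the other genes. THUMPD3-AS1 was the most abundant of the lower ones at 202 CPM (194 to 209) at 0 h and 131 CPM (127 to 136) at 2 h, 1.54-fold lower (1.46 to 1.61), followed by KMT2E-AS1 at 77.4 CPM (72.9 to 82.04) at 0 h and 49.6 CPM (47.1 to 52.3) at 2 h, 1.56-fold lower (1.44 to 1.69). ALOX12-AS1 went from 34.00 to 20.1 CPM and AC099791.2 from 28.6 to 16.7 CPM. The abundant nuclear RNA MALAT1 was level at 14080 CPM at 0 h and 13590 CPM at 2 h. With the cells under 1% GFP, 5 such genes were lower and the median of the 169 was -0.12, and with TMM 8 were lower and the median was -0.18. With every called cell 41 were lower and the median was -0.31. Cells lacking TOP2A and MKI67 UMIs gave 35 lower ones, and the mean over cells gave 28. No source used here states whether strand was counted, so UMIs of an antisense gene and of its partner may not be separable.

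Most changes were seen as a change in the share of cells, taken here from the same cells as the levels. For all 57 higher genes the share of thinned cells with a UMI was larger at 2 h, with the 95% intervals apart for 53, and for all 69 lower genes it was smaller, with the intervals apart for 60. The genes were picked by the summed UMIs of these cells, which the shares follow closely, so this is no further support for them. PLK2 was found in 76.1% of the thinned cells at 0 h and in 52.1% at 2 h, ZFP36L1 in 75.9% of the thinned cells at 0 h and in 56.3% at 2 h and JAG1 in 61.1% of the thinned cells at 0 h and in 44.2% at 2 h. Among the higher genes, ELF3 was found in 45.8% of the thinned cells at 0 h and in 69.2% at 2 h.

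**Figure D4:**
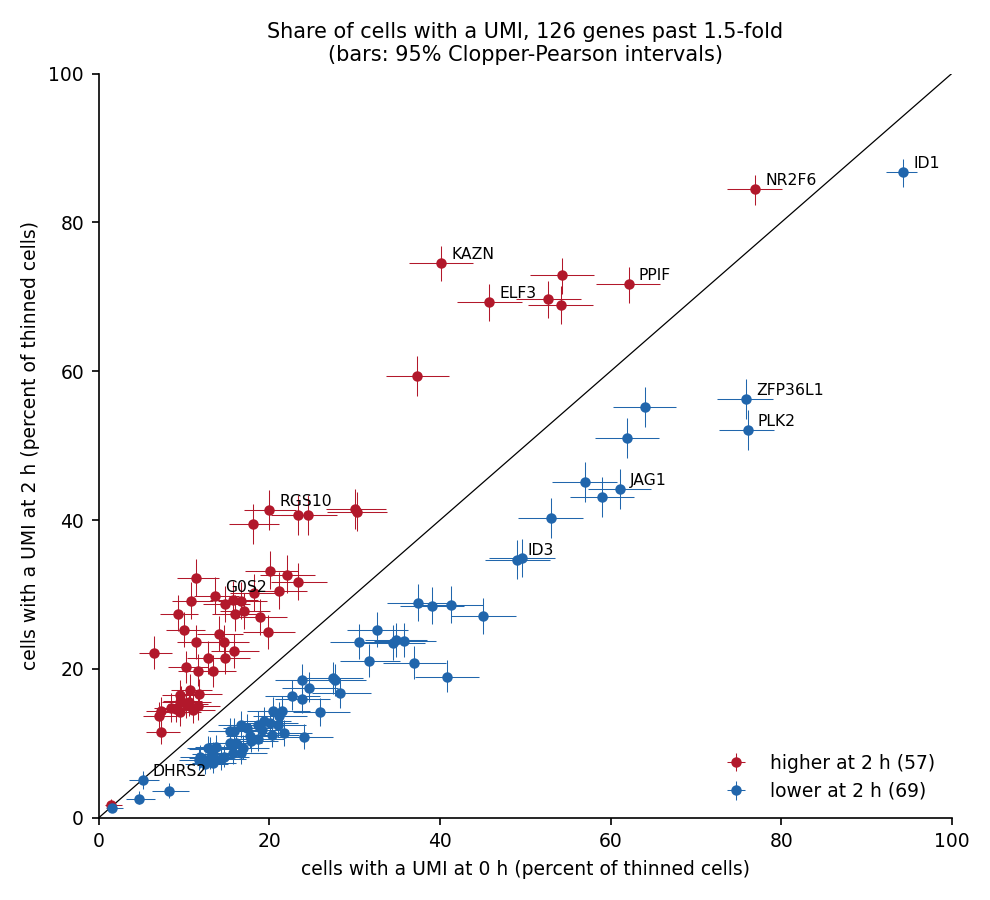
Each point is 1 of the 57 higher or 69 lower genes, with the percent of thinned cells that held a UMI of it at 0 h on the x axis and at 2 h on the y axis, 95% Clopper-Pearson intervals as bars and the diagonal as the line of equal shares. All 57 higher genes lie above the line and all 69 lower genes below it, but they were picked by the summed UMIs of the same cells.

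A few genes rested on few cells. In the 1% of cells with most UMIs of a gene lay over 50% of its UMIs in at least 1 pool for 7 of the 8066 genes, and 5 of these 7 were past 1.5-fold. HIST1H4C, a histone gene, had 112 UMIs at 0 h and 598 in the deeper 2 h pool. Those cells held 94.6% of its UMIs at 0 h and 97.5% at 2 h. DHRS2, a short-chain dehydrogenase gene, was at 69.4 CPM (65.2 to 73.8) at 0 h and 23.9 CPM (22.2 to 25.8) at 2 h, 2.90-fold lower (2.63 to 3.20), but a UMI was found in 5.14% of the thinned cells at 0 h and in 5.04% at 2 h, and its top cells held 79.5% of its UMIs at 0 h and 71.97% at 2 h. LINC01647 had 265 UMIs at 0 h and 68 at 2 h, and its top cells held 96.98% of its UMIs at 0 h and 88.2% at 2 h. For HSPA6 the top cells held 65.7% of its UMIs at 0 h and 81.01% at 2 h, and for IER3 they held 49.3% of its UMIs at 0 h and 61.7% at 2 h. When the 1% of cells with most UMIs of each gene was left out of each pool, the log2 change of HIST1H4C was 0.11 and that of LINC01647 -0.29, neither past 1.5-fold, while DHRS2 was at -0.99, HSPA6 at -2.22 and IER3 at -1.82. In cells with no UMI of TOP2A or MKI67, DHRS2 was at -0.81 and HSPA6 at -2.81. HIST1H4C, HSPA6 and NPIPB5 belong to families of near-identical copies, so their counts are uncertain.

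The motifs printed above were counted in the promoters that RefSeq holds, in windows of 300 bases from 250 before to 50 after the start, on both strands. Promoters were found for 45 of the 57 higher genes, 45 of the 69 lower genes and 6680 of the 8066 tested genes. The full estrogen response element (GGTCA and TGACC with 3 bases between them), which so holds the half-site on both strands, was in 0 of the higher and 0 of the lower promoters and in 0.015% of those tested, and the form with at most 1 mismatch in the half-sites was in 0 of both and in 0.434% of those tested. The half-site GGTCA was in 31.1% of the higher, 37.8% of the lower and 34.2% of the tested promoters, and in 37.7% of all 27305 promoters in the table. The TATA sequence TATAAA was in 4 of the 45 higher (8.89%) and 11 of the 45 lower promoters (24.4%), against 4.93% of those tested and 12% of all. In a window from -35 to -25, chosen after the positions were seen, it lay in 7 of the lower promoters, those of DHRS2, CTGF, JUNB, EFNB2, ID1, GADD45B and PPP1R15A (15.6%), in 3 of the higher ones, those of FHL2, ELF3 and RNF223 (6.67%), and in 1.71% of those tested. The AP-1 sequence TGANTCA was in 0 of the higher and 2 of the lower promoters (4.44%), HSPA6 and AMIGO2, against 3.97% of those tested. The CArG box, the site of serum response factor, was in 2 promoters of each set (4.44%), against 1.08% of those tested. A match of letters describes the sequence only, and where there was none the letters were not in this window.

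The 4 h and 8 h cultures share the 0 h pool with this comparison, and their levels are given side by side. TGFA was at 37.6 CPM at 4 h and 44.6 CPM at 8 h after 34.2 CPM at 2 h, RGS10 at 70.7 CPM at 4 h and 63.1 CPM at 8 h and KAZN at 158 CPM at 4 h and 140.2 CPM at 8 h. FAM43A, in contrast, had gone from 35.9 CPM at 2 h to 19.5 CPM at 4 h and 13.6 CPM at 8 h, and TOB1 from 58.4 CPM to 27.96 CPM at 4 h and 27.02 CPM at 8 h, near its 0 h level of 25.98 CPM. Of the lower genes, JUN was at 105 CPM at 4 h and 122 CPM at 8 h, IER2 at 85.02 CPM at 4 h and 119.5 CPM at 8 h and ID1 at 503 CPM at 4 h and 603 CPM at 8 h, while ARID5B was at 26.9 CPM at 4 h and 32.8 CPM at 8 h and IER3 at 7.69 CPM at 4 h and 8.98 CPM at 8 h, both still under their 0 h levels. The lower genes thus differed in how much of their level the later pools held, with ID1 at 603 CPM at 8 h against 706 CPM at 0 h, and SPRY1, at 105 CPM, short of 145 CPM.

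**Figure D5:**
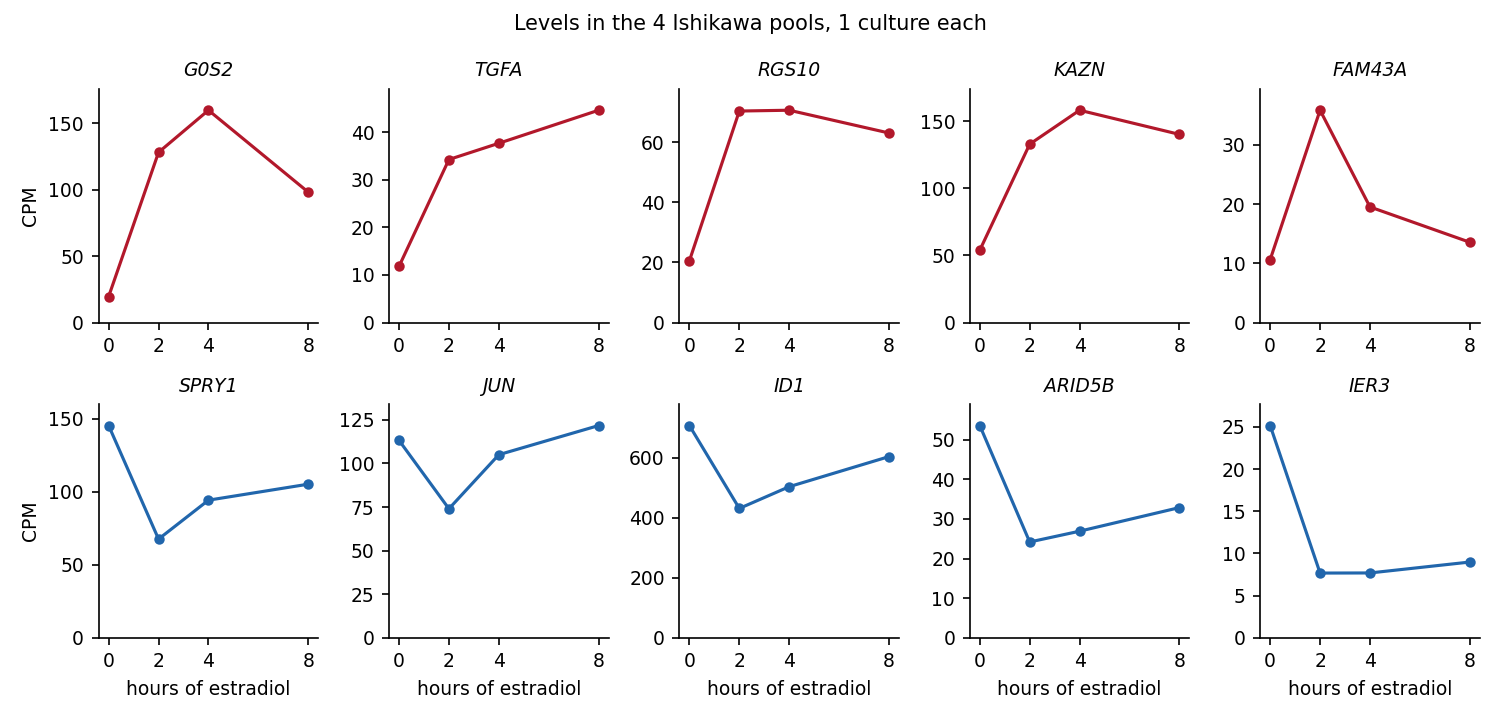
Each panel gives the level of 1 gene in CPM in the 4 Ishikawa pools against hours of E2, 5 genes higher at 2 h in red and 5 lower at 2 h in blue, with 1 culture per point and no error bars. FAM43A is highest at 2 h, TGFA is highest at 8 h, and JUN is lowest at 2 h and above its 0 h level at 8 h.

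Levels in T-47D after the same treatment are set beside these as values. Of the 57 higher genes 28 were past 10 CPM in T-47D and 13 were under 1 CPM in both of its pools. Of the 28, 8 were higher there by 1.5-fold and 1 was lower. Of all 7425 genes past 10 CPM in T-47D, 1.12% were higher and 0.418% lower at 2 h by 1.5-fold. RNF223 was at 9.44 CPM at 0 h and 34.5 CPM at 2 h there, SLC9A3R1 at 210.5 CPM at 0 h and 407 CPM at 2 h and RARA at 15.2 CPM at 0 h and 41.9 CPM at 2 h. TOB1 was at 128 CPM at 0 h and 225 CPM at 2 h. G0S2 was at 0.181 CPM at 0 h and 0 CPM at 2 h. Of the 69 lower genes, 30 were past 10 CPM in T-47D and 12 were under 1 CPM in both of its pools. Of the 30, 9 were lower there by 1.5-fold and 1 was higher. ARID5B was at 123 CPM at 0 h and 62.5 CPM at 2 h, PLK2 at 90.5 CPM at 0 h and 49.6 CPM at 2 h, CITED2 at 184 CPM at 0 h and 114 CPM at 2 h and ID1 at 133 CPM at 0 h and 87.4 CPM at 2 h. MYC, under the minimum in T-47D, was at 2.17 CPM at 0 h and 8.18 CPM at 2 h. RGS10 was at 28.1 CPM at 0 h and 31.9 CPM at 2 h, within 0.32 of 0 in log2 change. Differences between Ishikawa and T-47D were not tested.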

How the data were processed

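Single-cell RNA was captured with 10x 3′ v3.1 chemistry, and the authors deposited raw UMI counts per gene and cell with the MULTI-seq tag calls. Per the labels and the submitters' processing notes the reads were aligned to hg38 with Cell Ranger 3.1.0. Use of strand in counting is not stated in any source used here. Cells without exactly 1 called time were left out, which removed the tag doublets, and no further doublet caller was run. The limits on Ishikawa cells were 8500 and 35000 UMIs, 2700 and 6000 genes, and 7% of UMIs from mitochondrial genes. For T-47D they were 7500 and 40000 UMIs, 1500 and 6000 genes, and 20%. Median depth was 19122 UMIs per cell at 0 h and 19616 at 2 h.

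The deposited counts were summed per time point without GFP and tdTomato, scaled to CPM and compared as log2 with a pseudocount of 1 for genes of at least 10 CPM on average, with 1.5-fold as the threshold. Intervals were exact Poisson, exact conditional binomial (ratios) and Clopper-Pearson at 95% (numpy 2.4.6, scipy 1.17.1, pandas 2.3.3, Python 3.11.15). Shares of cells were taken after each cell was thinned to 11338 UMIs, the 10th percentile of the kept cells. Cultures were not replicated, so no test was run, and the study's test over single cells was not used. The procedure was checked on simulated pools that held counting error only. They had no differences between cells or cultures, so the check says nothing about those. Members and lists were chosen with earlier results of these data known. Genes named were the 25 largest changes in each direction, every gene of a list past 1.5-fold, its 2 extremes, a few genes picked by name (ESR1, PGR, GREB1, TFF1, TGFA, PEG10), and others chosen after their values were seen, among them DHRS3, CA12, DUSP5, NR2F6, SAT1, PPARD, FZD5 and MFSD2A. The text takes a subset by role, and some genes are not reported here. Alternatives varied the scaling (TMM factors from edgeR 4.0.16 in R 4.3.3, median of ratios), pseudocount, minimum, fold, cell limits and pooling. Promoters and coordinates are from RefSeq, and 114 of the 126 genes past 1.5-fold had a place there.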

Additional observations from a re-analysis of the deposited data

Results flagged for a closer look

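For IER3 the Ishikawa pools and the T-47D pools moved past 1.5-fold in opposite directions after 2 h of E2. IER3 was at 25.2 CPM at 0 h and 7.68 CPM at 2 h in Ishikawa (log2 change -1.59) and at 123 CPM at 0 h and 299 CPM at 2 h in T-47D (log2 change 1.27). With 1 culture for each time point and line, the difference was not tested.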

How the results depend on the processing

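The count of 57 higher and 69 lower genes moved by over 1.5 times with these settings. With TMM scaling 43 genes were lower, with a pseudocount of 5 it was 38, and with every called cell it was 135. A minimum of 5 CPM gave 86 higher and 104 lower, one of 50 CPM gave 11 and 16, and no minimum gave 190 and 214. A lower threshold of 0.32 on the log2 scale gave 169 and 414, and 2-fold gave 17 and 8. In cells with no UMI of TOP2A or MKI67, 263 at 0 h and 477 at 2 h, 95 were higher and 192 lower, and LINC01647 was reversed at 0.82. The cause of these shifts was not tested, apart from fewer or more genes passing a minimum or a threshold. Over 64 named genes past 1.5-fold and 13 alternatives that keep the threshold, 831 of 832 values kept their direction and 792 stayed past 1.5-fold, and 44 genes were past it in all 13. Those lost in 3 or more of the 13 were ID2, JUN, CDKN2B, TRIB3 and PPP1R15A. The alternative without the 1% of cells with most UMIs of each gene was chosen after seeing the data. Leaving out a replicate was not possible with 1 culture per time point. No paired analysis was possible because each time point is 1 culture and no test was made. Depth limits genes under 10 CPM, for which a count of 0 still allowed up to 0.206 CPM at 0 h and 0.104 CPM at 2 h.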

Other observations

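Other gene groups differed little between the 2 pools, beside all 8066 tested genes, of which 3056 were above 0 in log2 change and 5010 below. In energy metabolism, 24 of 31 nuclear-encoded genes of the respiratory chain were above 0 in log2 change with a median of 0.02, and none of the 31 passed 1.5-fold. Of 23 genes of cholesterol synthesis, 16 were above 0 with a median of 0.08, from SREBF2 (28.03 and 24.7 CPM), a sterol-regulated transcription factor, as the lowest to NSDHL (25.2 and 31.4 CPM), a sterol dehydrogenase, as the highest. The median was below 0 in 1 of the 13 alternatives. Of 19 genes of glycolysis and hypoxia, 11 were above 0, and the lowest was ANKRD37 at 24.9 and 16.6 CPM.

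In the BCL2 family, which sets the threshold for apoptosis, 10 of 12 genes were below 0 with a median of -0.10, and MCL1, a short-lived survival member, was the lowest at 71.4 and 51.9 CPM without passing 1.5-fold. Among 21 genes of G1, 16 were below 0 with a median of -0.09. CDKN2B was the one past 1.5-fold (4.76%, against 0.855% of all tested genes), though not in 5 of the 13 alternatives. CCND2, a D-type cyclin, was the highest at 9.12 and 12.5 CPM. The median of the BCL2 family changed sign in none of the 13 alternatives. These lists were composed with earlier results of these cells known, and no set test was run.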
